A study of Mus musculus with 8 samples.

Results

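The 10 integrin subunit genes Itgb1, Itgb4, Itgb5, Itgb6, Itgb8, Itga3, Itga6, Itgav, Itga8 and Itga11 were followed over the cells of mouse dorsal skin, as the rows of the feature table that carry these symbols. All 10 were found among 31053 features, each as 1 row, and all 10 had at least 1 UMI (a transcript counted once by its molecular barcode) in the cells kept. The samples were female BALB/c mice of 14 to 16 weeks whose dorsal skin had been injected subcutaneously with PBMCsec, the factors released by irradiated peripheral blood mononuclear cells, or with vehicle. There were 4 single-cell libraries per group, numbered 1 to 4, made with the 10x Genomics 3′ kit from dissociated 4 mm skin biopsies. According to the study's methods the injected skin was scar tissue, mice were sacrificed at different times, and dead cells were sorted out before loading. The labels name no scar, and the title of the series is that of work on mast cells and basophils, so that the state of the tissue rests on those methods alone. Nor do the labels give the time, the control solution or the animal of a library, so treatment alone defined the groups, and p-values measure the spread between these libraries.

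Integrins are receptors that join a cell to the matrix around it. Each receptor is a pair of an alpha and a beta subunit, both of which cross the membrane, and the pair decides the ligand. The β1 subunit pairs with many alpha subunits, while β4 pairs with α6 alone and links basal keratinocytes (KCs) to laminin through the hemidesmosome. The αv subunit pairs with β5, β6 and β8, among others, and αvβ6 and αvβ8 are known for releasing active TGF-β from its latent complex. The α3β1 receptor binds laminin, α11β1 binds fibrillar collagen on fibroblasts (FBs), and α8β1 binds nephronectin and fibronectin.

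Libraries held between 14753926 and 37880651 UMIs. Of 26231 barcodes, 6150 passed the study's limits on genes, UMIs and mitochondrial share, 3320 after PBMCsec and 2830 after vehicle, with 151 to 1659 cells in a library and a median of 6156 to 9521 UMIs per cell. Among the kept cells, PBMCsec 3 and vehicle 3 shared 2 barcodes, PBMCsec 1 and vehicle 1 shared 1, and PBMCsec 2 and vehicle 4 shared 1. Cells fell into 35 clusters, of which 27 were named "X-like" by marker genes. The class called epithelium joined the KC-like, suprabasal KC-like and hair follicle (HF) clusters and 2 unnamed keratin clusters (2537 cells), and it was compared with FBs (1350 cells), T cells (TCs, 836 cells) and a myeloid class of dendritic cells (DCs), Langerhans cells and macrophages (518 cells). Within each of these 4 classes a library gave at least 15 cells. The members had been left out of the genes used for clustering and naming, so no class was defined by them. Values are CPM, a gene's UMIs scaled to a common total within each class and library. Since 3′ libraries count 1 end of a transcript, CPM was not divided by gene length, and levels are compared between classes of cells and not between genes. Log2 differences used a prior count of 2, which shrinks the gap to a class near 0.

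The members lie on 6 autosomes of the mouse genome (GRCm38). Itgb6 (chr2:60598292-60722643, minus strand), Itga6 (chr2:71745616-71858416, plus), Itgav (chr2:83724397-83806916, plus) and Itga8 (chr2:12106632-12301922, minus) share a chromosome. Itgb4 (chr11:115974709-116008412, plus) and Itga3 (chr11:95044474-95076801, minus) share another. The others are Itgb1 (chr8:128685654-128733200, plus), Itgb5 (chr16:33829665-33949338, plus), Itgb8 (chr12:119158022-119238802, minus) and Itga11 (chr9:62677826-62783982, plus). None overlapped another gene on its own strand. Itgb4, Itga6 and Itga8 each overlapped 1 gene on the opposite strand, and how strand was counted is not given in the sources used here.

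The RefSeq promoter table (GRCm38.p6, 250 bases before to 50 bases after a transcription start) held 8 of the 10 members; Itga6 and Itgb4 had no entry. Shown are the promoters of 4 members that were high in particular classes in the results that follow, 3 of them in skin epithelium and 1 in FBs. Capitals mark matches to any of 5 motifs searched on both strands, and the sequences without capitals held none.
Itga3, chr11:95076665-95076964, minus strand: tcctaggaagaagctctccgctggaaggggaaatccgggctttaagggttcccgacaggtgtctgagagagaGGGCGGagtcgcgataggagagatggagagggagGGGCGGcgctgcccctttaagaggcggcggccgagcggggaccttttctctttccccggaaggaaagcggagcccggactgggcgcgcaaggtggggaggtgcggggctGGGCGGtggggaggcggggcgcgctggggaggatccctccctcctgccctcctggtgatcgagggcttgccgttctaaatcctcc
Itgb6, chr2:60722554-60722853, minus strand: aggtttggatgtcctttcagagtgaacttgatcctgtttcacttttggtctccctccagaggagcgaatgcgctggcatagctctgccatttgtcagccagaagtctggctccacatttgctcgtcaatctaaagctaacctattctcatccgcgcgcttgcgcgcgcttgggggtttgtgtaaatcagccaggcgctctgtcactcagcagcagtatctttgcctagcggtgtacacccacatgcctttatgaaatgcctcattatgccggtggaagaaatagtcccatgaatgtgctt
Itgb8, chr12:119238227-119238526, minus strand: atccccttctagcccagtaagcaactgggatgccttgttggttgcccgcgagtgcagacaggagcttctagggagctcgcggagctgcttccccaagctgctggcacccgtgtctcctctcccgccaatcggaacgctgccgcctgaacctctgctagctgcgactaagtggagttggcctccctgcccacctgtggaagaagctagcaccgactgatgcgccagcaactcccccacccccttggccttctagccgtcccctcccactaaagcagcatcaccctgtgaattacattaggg
Itga11, chr9:62677605-62677904, plus strand: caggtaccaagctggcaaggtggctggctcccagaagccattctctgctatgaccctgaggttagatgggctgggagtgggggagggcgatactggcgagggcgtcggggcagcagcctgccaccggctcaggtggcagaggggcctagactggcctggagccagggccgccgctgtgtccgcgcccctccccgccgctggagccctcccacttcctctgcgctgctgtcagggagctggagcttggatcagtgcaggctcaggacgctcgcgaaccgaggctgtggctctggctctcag
The motifs were the GC box (GGGCGG), found in 35.7% of the 32851 promoters of the table, the TATA box (TATAAA, 13.6%), the AP-1 site (TGANTCA, 7.81%), the cAMP response element (TGACGTCA, 1.79%) and the palindromic SMAD box (GTCTAGAC, 0.213%). The Itga3 promoter shown held 3 GC boxes and none of the other motifs. A second Itga3 start, at chr11:95069149-95069448, held 1 GC box and 1 AP-1 site. Itgb5 held 3 GC boxes, Itgb1 and Itgav 1 each, and the entries of Itgb6, Itgb8, Itga8 and Itga11 held none of the 5. The GC content of the printed windows was 66.7% for Itga3, 50.3% for Itgb6, 60.7% for Itgb8 and 68.0% for Itga11, beside a median of 52.7% over the table. A match is a run of letters and not a binding site.

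**Figure D1:**
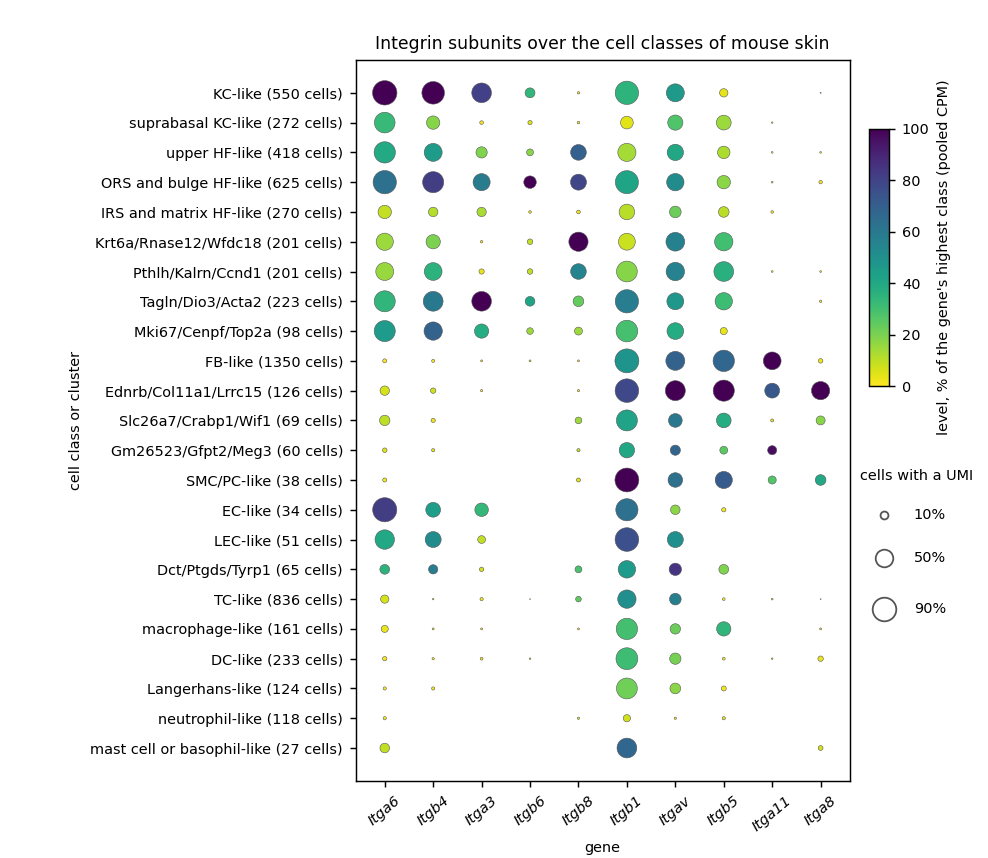
Level of each integrin gene over 23 cell classes and clusters, treatment groups together. Colour gives pooled CPM as a percentage of the gene's highest class, dot area the share of cells with at least 1 UMI, and rows give the number of cells. Itga6 and Itgb4 fill most KC and HF rows, and Itga3 chiefly the KC-like, ORS and bulge HF-like and Tagln/Dio3/Acta2 rows. Itgb5 and Itga11 fill the FB rows, Itga8 mainly the Ednrb/Col11a1/Lrrc15 row, and Itgb1 and Itgav most rows.

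Of the epithelium, FBs, TCs and the myeloid class, the epithelium held the most Itga6 and Itgb4, the genes of the hemidesmosome subunits α6 and β4. In KC-like cells, 2 clusters with Krt14 or with Serpinb2 and Fosl1 among their leading genes, Itga6 lay at 520, 529 and 487 CPM in PBMCsec libraries 1, 3 and 4 and at 634, 671 and 568 CPM in vehicle libraries 2, 3 and 4 (PBMCsec 2 and vehicle 1 had fewer than 10 such cells). The mean was 568 ± 71.3 CPM (SD, n = 6). The 3 PBMCsec libraries lay below the 3 vehicle libraries, where 5.66% of all genes tested in KC-like cells had groups that did not overlap; the fit is given with the treatment comparisons. The mean of Itga6 fell to 388 ± 92.3 CPM (n = 7) in outer root sheath (ORS) and bulge HF-like cells and to 231 ± 80.2 CPM (n = 8) in upper HF-like cells. FBs held 3.25 ± 3.12 CPM (n = 8). Over the whole epithelium Itga6 was 5.77 log2 units above FBs and 3.02 above TCs, higher in 8 of 8 libraries each time (exact sign-flip permutation test over libraries, two-sided, p = 0.00781, the smallest that 8 libraries allow; adjusted p = 0.0138 over 60 pairs).

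Itgb4 followed the same classes. KC-like cells held 220, 215 and 238 CPM in PBMCsec libraries 1, 3 and 4 and 280, 223 and 252 CPM in vehicle libraries 2, 3 and 4. ORS and bulge HF-like cells held 192 ± 28.4 CPM (n = 7) and upper HF-like cells 106 ± 43.1 CPM (n = 8). Itgb4 in FBs, TCs, DCs and macrophages averaged 2.17 CPM or less, and Itgb4 was 4.81 log2 units higher in epithelium than in FBs (8 of 8 libraries, exact adjusted p = 0.0138). The order of Itgb4 at its top was not resolved: KC-like cells exceeded ORS and bulge HF-like cells in 5 of 6 libraries by 0.26 log2 units (exact adjusted p = 0.17), and with a mitochondrial limit of 10% the log2 ratio of their means went from 0.31 to 0.02.

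Suprabasal KC-like cells, which carry Krt1 and Krt10 and have left the basement membrane, held less of both subunits. In the 5 libraries with at least 10 cells of both kinds (PBMCsec 1, 3 and 4, vehicle 3 and 4), Itga6 went from 520, 529, 487, 671 and 568 CPM in KC-like cells to 193, 177, 246, 174 and 182 CPM in suprabasal KC-like cells. Itgb4 went from 220, 215, 238, 223 and 252 CPM to 47.1, 37.4, 71.3, 43.2 and 28.4 CPM in the same libraries. Itga3 went from 149, 106, 144, 108 and 126 CPM to 0, 1.13, 6.48, 2.21 and 1.29 CPM. The 2 kinds of cells did not overlap in any of these 3 genes.

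Both hemidesmosome subunits were also counted outside the epithelium. Endothelial (EC)-like cells (34 cells) held Itga6 at a pooled 468 CPM (95% exact Poisson interval 381 to 569, counting error only) and Itgb4 at 102 CPM (63.9 to 154). Lymphatic endothelial (LEC)-like cells (51 cells) held Itga6 at 229 CPM and Itgb4 at 119 CPM. An unnamed cluster led by Dct, Ptgds and Tyrp1 (65 cells) held Itgb4 at 135 CPM and Itga6 at 202 CPM, with an Itga6 UMI in 15.4% of its cells. These 2 levels rested on vehicle library 4, with 16 of the 28 Itgb4 UMIs and 20 of the 42 Itga6 UMIs, and without it the cluster held Itgb4 at 67.4 CPM and Itga6 at 124 CPM. No test was run on these 3 groups of cells, which had 10 cells or more in 0 (EC-like), 2 (LEC-like) and 4 (Dct, Ptgds and Tyrp1) libraries.

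Itga3, the laminin-binding α3 subunit, had the KC-like cells at its top among the ordered classes, with 149, 106 and 144 CPM in PBMCsec libraries 1, 3 and 4 and 166, 108 and 126 CPM in vehicle libraries 2, 3 and 4. ORS and bulge HF-like cells averaged 101 ± 38.1 CPM (n = 7) and upper HF-like cells 29.7 ± 11.8 CPM (n = 8). The highest pooled Itga3 level stood in the unnamed cluster led by Tagln, Dio3 and Acta2 (223 cells), at 153 CPM (136 to 171). A UMI of Itga3 was seen in 62.4% of KC-like cells (median depth 10634.5 UMIs) and in 0.593% of FBs (9324.5 UMIs), which is taken as the background at this depth, its source not tested. Epithelium exceeded FBs by 4.23 log2 units in Itga3 (8 of 8 libraries, exact adjusted p = 0.0138).

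The β6 and β8 subunits pair with αv to release TGF-β. Of the ordered classes, ORS and bulge HF-like cells had the highest mean of both genes. In KC-like cells Itgb6 was counted, while Itgb8 was near background. Itgb6 was highest in ORS and bulge HF-like cells, with 21.9, 54.6, 59.3 and 72.7 CPM in PBMCsec libraries 1 to 4 and 101, 43.6 and 43.3 CPM in vehicle libraries 2 to 4. KC-like cells held Itgb6 at 18.1, 17.6 and 15.8 CPM after PBMCsec (libraries 1, 3 and 4) and at 23.3, 20.0 and 12.7 CPM after vehicle (libraries 2, 3 and 4). The HF level was the higher one in 6 of 6 libraries, by 1.25 log2 units (exact p = 0.0313, adjusted p = 0.11 over 60 neighbouring pairs). Within the KC-like cells, the cluster led by Serpinb2 and Fosl1 held Itgb6 at 28.3 CPM (22.0 to 35.7) and the cluster with Krt14 at 10.03 CPM (6.99 to 13.9). Itgb6 was not seen in any of 161 macrophage-like cells, which allows a share of cells with a UMI of up to 1.86%. Such a limit, 3 counts over the number of cells, covers counting error and bounds cells with a UMI, not cells that express the gene. Itgb6 was 2.69 log2 units higher in epithelium than in FBs (8 of 8 libraries, exact adjusted p = 0.0138).

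Itgb8 was high in upper HF-like and in ORS and bulge HF-like cells and near background in KC-like cells. Not all of the follicle held it: inner root sheath and matrix HF-like cells had a pooled 2.63 CPM, with a UMI in 6 of 270 cells. Upper HF-like cells held Itgb8 at 75.7, 59.5, 86.1 and 53.6 CPM in PBMCsec libraries 1 to 4 and at 76.1, 75.8, 60.5 and 48.2 CPM in vehicle libraries 1 to 4. ORS and bulge HF-like cells ranged from 42.5 to 149 CPM (mean 86.04 ± 43.9, n = 7), and these 2 classes did not differ beyond their spread (0.24 log2 units, higher in 4 of 7 libraries, exact adjusted p = 0.51). The unnamed cluster led by Krt6a, Rnase12 and Wfdc18 (201 cells) held Itgb8 at 100.2 CPM (86.8 to 115). In KC-like cells 5 of 550 cells (0.909%, 95% exact binomial interval 0.296 to 2.11%) had an Itgb8 UMI, beside 39.7% of 418 upper HF-like cells of similar depth (medians of 10634.5 and 9625 UMIs). FBs (8 of 1350 cells, 0.593%) were taken as the background.

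Of FBs, TCs and the myeloid class, TCs held the most Itgb8. TCs held Itgb8 at 54.8, 7.12, 32.3 and 6.67 CPM in PBMCsec libraries 1 to 4 and at 13.4, 27.7, 24.6 and 9.33 CPM in vehicle libraries 1 to 4, so libraries of 1 group differed several-fold. All 8 libraries were above their FBs, by 2.55 log2 units on average, and below their epithelium, by 1.18 log2 units (exact adjusted p = 0.0138 for both). Among the 5 TC clusters, that with Trac, Icos, Cd28 and Cd4 among its leading genes (381 cells) held Itgb8 at 52.0 CPM (40.6 to 65.7). The cluster led by Areg, Ctla4 and Il13 held Itgb8 at 15.3 CPM (6.99 to 29.03), but 7 of its 9 UMIs came from PBMCsec library 1 and without that library it held 4.27 CPM. The 3 others, led by Xcl1 and Gzma, by Trdc and Blk, and by Csf2 and Il1rl1 (the last with 3 TC markers, none of them among its top 10 genes), held Itgb8 at 3.04 CPM or less. A UMI of Itgb8 was found in 43 of 836 TCs (5.14%) at a median of 3364.5 UMIs, and in 0 of 233 DC-like cells (median 8454 UMIs), which allows a share of cells with a UMI of up to 1.29%. Outside both the epithelium and these 3 classes, the clusters led by Dct, Ptgds and Tyrp1 and by Tagln, Dio3 and Acta2 held Itgb8 at a pooled 28.9 CPM (10.6 to 62.9) and 23.8 CPM (17.6 to 31.5), beside 24.4 CPM in TCs.

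**Figure D2:**
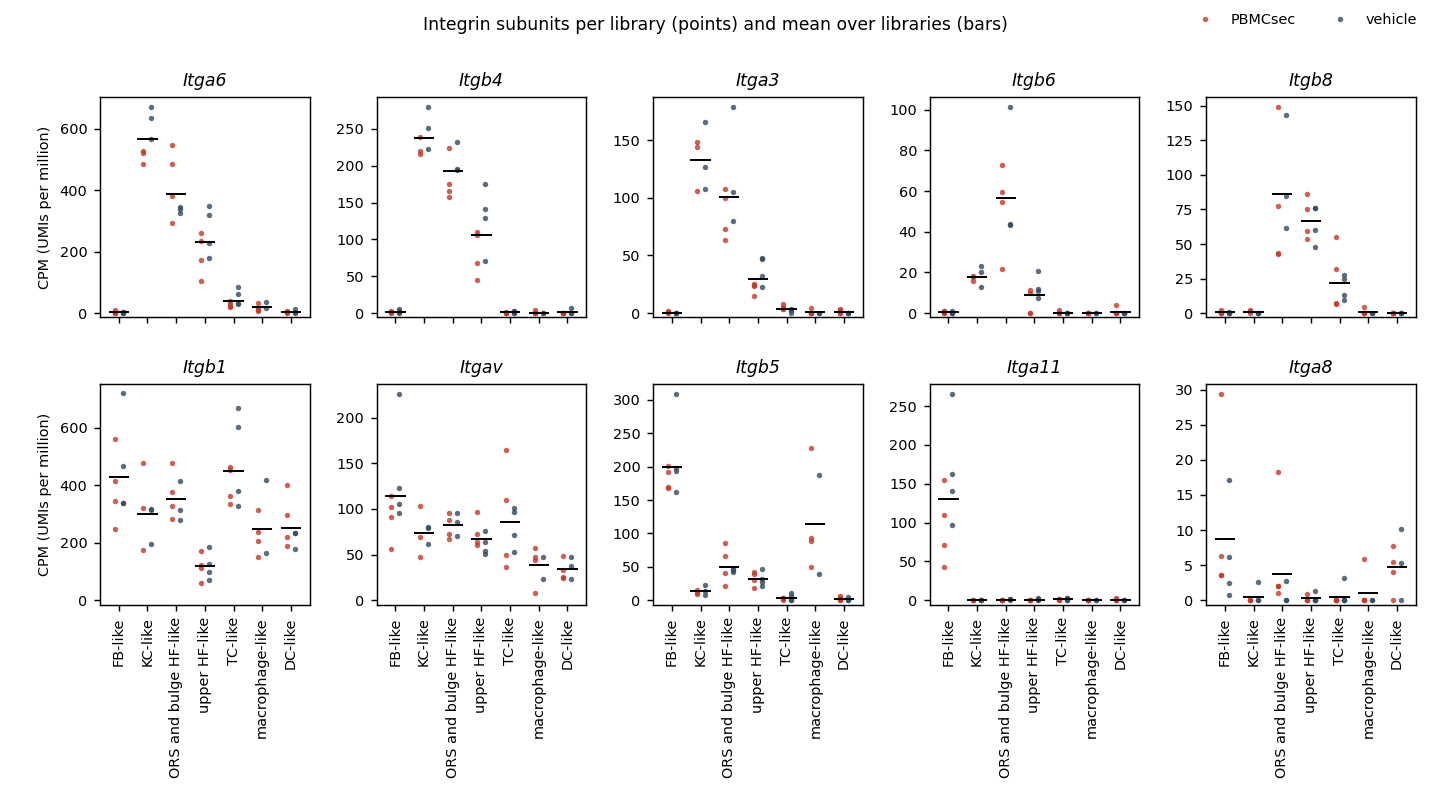
CPM of each integrin gene (panels, linear axes from 0, each with its own scale) in the 7 cell classes that had at least 10 cells in at least 6 libraries. Points are libraries, red for PBMCsec and dark for vehicle, and bars their mean. Itga11 rises above 0 in FBs, at 42.4 to 266 CPM, and Itgb8 in both HF classes shown and in TCs but not in KC-like cells.

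Itgav, the common partner of β5, β6 and β8, was counted in each of the 7 ordered classes. FBs held Itgav at 102, 55.5, 114 and 91.0 CPM in PBMCsec libraries 1 to 4 and at 226, 105, 123 and 95.9 CPM in vehicle libraries 1 to 4. Vehicle library 1, with 28 FBs, was the highest and the others lay between 55.5 and 123 CPM. TCs averaged 85.3 ± 41.6 CPM (n = 8), ORS and bulge HF-like cells 81.9 ± 11.996 CPM (n = 7) and KC-like cells 73.3 ± 18.9 CPM (n = 6). FBs exceeded epithelium by 0.52 log2 units in 7 of 8 libraries (exact p = 0.0391, adjusted p = 0.060), and epithelium and TCs did not differ beyond their spread (0.07 log2 units lower in epithelium, higher in 4 of 8 libraries, exact adjusted p = 0.81). The myeloid class was the low one at 34.2 ± 9.53 CPM (n = 8), below epithelium, FBs and TCs in 8 of 8 libraries each time (exact adjusted p = 0.0138).

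Itgb5, which forms the vitronectin receptor αvβ5, was highest in FBs among the ordered classes. FBs held Itgb5 at 167, 201, 169 and 192 CPM in PBMCsec libraries 1 to 4 and at 162, 309, 198 and 193 CPM in vehicle libraries 1 to 4. Apart from vehicle library 2, which had 20 FBs, the libraries lay within 162 to 201 CPM. Itgb5 was 2.21 log2 units higher in FBs than in epithelium, 5.13 higher than in TCs and 2.96 higher than in the myeloid class, in 8 of 8 libraries (exact adjusted p = 0.0138). Macrophage-like cells, which use αvβ5 to take up dying cells, held Itgb5 at 49.8, 228, 88.9 and 93.8 CPM in PBMCsec libraries 1 to 4 and at 39.6 and 187 CPM in vehicle libraries 3 and 4. The other myeloid cells had little: pooled levels were 1.54 CPM in DC-like and 5.11 CPM in Langerhans-like cells, beside 94.2 CPM in macrophage-like cells. SMC/PC-like cells (196 CPM) and the clusters led by Slc26a7, Crabp1 and Wif1 (104 CPM) and by Pthlh, Kalrn and Ccnd1 (100.3 CPM) held more Itgb5 than macrophage-like cells in the pool, and those led by Tagln, Dio3 and Acta2 (86.1 CPM) and by Krt6a, Rnase12 and Wfdc18 (82.3 CPM) nearly as much. In the epithelium Itgb5 was lowest where the hemidesmosome genes were highest, with 13.4 ± 5.69 CPM (n = 6) in KC-like cells and 49.8 ± 20.3 CPM (n = 7) in ORS and bulge HF-like cells. Suprabasal KC-like cells held Itgb5 at 18.8, 39.7 and 35.7 CPM in PBMCsec libraries 1, 3 and 4 and at 39.9 and 52.9 CPM in vehicle libraries 3 and 4, above the KC-like cells (10.9, 8.82, 15.8, 13.6 and 7.83 CPM) in each of the 5.

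Itga11, the collagen-binding α11 subunit, had the widest gap between FBs and epithelium of the members that FBs led. FBs held Itga11 at 154, 42.4, 109 and 71.5 CPM in PBMCsec libraries 1 to 4 and at 162, 266, 96.5 and 140 CPM in vehicle libraries 1 to 4. No Itga11 UMI was found in 550 KC-like cells, which allows a share of cells with a UMI of up to 0.545%, nor in 161 macrophage-like cells (up to 1.86%), while 51.0% of 1350 FBs had one. Itga11 was 5.06 log2 units higher in FBs than in epithelium, 4.85 higher than in TCs and 5.18 higher than in the myeloid class (8 of 8 libraries, exact adjusted p = 0.0138). FB clusters differed: the clusters led by Sfrp2 and Ace, by Mrgprg and Smpd3, by Mgp and Hmcn2, and by Ptx3 and Ccl2 held Itga11 at 142, 144, 118 and 124 CPM. The cluster with Cxcl12 and Lepr held Itga11 at 44.2 CPM (34.7 to 55.6) and the cluster led by Mfap4 and Cyp26b1 at 21.1 CPM (13.8 to 31.0). That last cluster was the highest FB cluster in Itgb5, at 278 CPM.

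Itga8 was highest in a small unnamed cluster led by Ednrb, Col11a1 and Lrrc15, which also had Mylk and Actg2 among its leading genes (126 cells). Its Itga8 levels were 186 and 121 CPM in PBMCsec libraries 3 and 4 and 253 and 335 CPM in vehicle libraries 3 and 4, the libraries with at least 10 of its cells. In the pool, 68 of its 126 cells (54.0%) had an Itga8 UMI and the level was 201 CPM (174 to 232). Smooth muscle cell or pericyte (SMC/PC)-like cells (38 cells) held Itga8 at 80.3 CPM (45.9 to 130.4) and the cluster led by Slc26a7, Crabp1 and Wif1 (69 cells) at 35.8 CPM (18.5 to 62.5; 57.6 CPM without PBMCsec library 1). FBs held Itga8 at 6.24, 29.4, 3.65 and 3.61 CPM after PBMCsec and at 17.1, 6.18, 2.38 and 0.755 CPM after vehicle (libraries 1 to 4), with a UMI in 3.33% of cells. The same cluster stood highest of all 23 in Itgb5 (274 CPM) and Itgav (159 CPM).

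Itgb1, the β1 subunit shared by many receptors, was found in all 23 classes and clusters. FBs held Itgb1 at 560, 346, 415 and 248 CPM in PBMCsec libraries 1 to 4 and at 721, 340, 468 and 339 CPM in vehicle libraries 1 to 4. TCs held Itgb1 at 452, 463, 334 and 363 CPM after PBMCsec and at 603, 669, 379 and 327 CPM after vehicle. FBs and TCs overlapped and did not differ beyond their spread (0.09 log2 units lower in FBs, higher in 5 of 8 libraries, exact adjusted p = 0.68). Both exceeded epithelium, FBs by 0.96 and TCs by 1.04 log2 units (8 of 8 libraries, exact adjusted p = 0.0138). In the epithelium Itgb1 was 300 ± 109 CPM in KC-like cells (n = 6), 354 ± 73.8 CPM in ORS and bulge HF-like cells (n = 7) and 118 ± 44.5 CPM in upper HF-like cells (n = 8). Suprabasal KC-like cells held Itgb1 at 56.5, 44.2 and 12.97 CPM (PBMCsec 1, 3 and 4) and at 49.8 and 20.6 CPM (vehicle 3 and 4), against 478, 321, 175, 317 and 195 CPM in KC-like cells of these libraries. The upper HF-like class was itself mixed: its cluster led by Sostdc1 and Ccl27a held Itgb1 at 153 CPM and Itgb4 at 138 CPM, and its cluster with Cst6, Krt79 and Defb6, genes of the infundibulum, at 15.9 and 7.47 CPM. The highest pooled Itgb1 levels stood in SMC/PC-like cells (868 CPM), the Ednrb/Col11a1/Lrrc15 cluster (681 CPM), LEC-like (657 CPM), mast cell or basophil-like (585 CPM) and EC-like cells (547 CPM).

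Over all members, 38 of the 60 pairs of broad classes passed an adjusted p under 0.05. Of 60 pairs of neighbouring classes in the finer order, 18 had an unadjusted exact p under 0.05 and 0 passed after adjustment, the lowest adjusted p being 0.094. With 5 to 8 libraries per pair an exact test gives no p below 0.00781, so that the fine order of neighbours is a description of means.

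Partners were counted together in the same cells. Itga6 and Itgb4 were both found in 80.7% of KC-like cells, 65.4% of ORS and bulge HF-like cells, 44.5% of upper HF-like cells and 23.9% of suprabasal KC-like cells, where the product of the 2 single shares gives 79.0%, 63.0%, 38.0% and 19.7%. Of the KC-like cells with an Itgb4 UMI, 98.2% also had one of Itga6, as had 529 of all 550 KC-like cells. Itga11 was found beside Itgb1, its known partner, in 48.4% of FBs (product 47.2%), and Itgav beside Itgb5 in 45.04% of FBs (product 42.8%). Itgav was found with Itgb8 in 22.4% of ORS and bulge HF-like, 18.7% of upper HF-like and 35.8% of Krt6a/Rnase12/Wfdc18 cells (products 20.0008%, 17.0% and 33.9%). Itga8 with Itgb1 was found in 50% of the Ednrb/Col11a1/Lrrc15 cells (product 48.4%). Each joint share named above lay over the product of its single shares, with the widest gap in upper HF-like cells (44.5% against 38.0%). That class joined clusters with Itgb4 at 138 and 7.47 CPM, and the part of this mixture in the gap was not tested. Not every pair of partners lay over its product: Itgav with Itgb5 in KC-like cells was found in 5.27% against 5.86%. Joint shares depend on depth, with medians of 6824 to 12773.5 UMIs in the classes named, and a cell without a UMI may still express the gene.

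Over the means of the 7 ordered classes, the genes most like each member were taken from 5897 genes that reached 50 CPM, as a description over 7 points that share libraries. For Itgb4 these were Dsg2, Fam83h and Palmd (Pearson r of log2 CPM 0.997, 0.997 and 0.996). For Itga3 they were Amd1, Fgfr3 and Lama3 (0.996, 0.993 and 0.990), the last of them a chain of laminin-332. For Itga11 they were Lrrc15, Ssc5d and C1qtnf3 (0.9998, 0.9998 and 0.9997), and for Itgb6 Kcnj15, Edn2 and Bnc1 (0.997, 0.993 and 0.992). For Itgb5 they were Abca1, Axl and Atraid (0.962, 0.953 and 0.952), where Axl is a receptor that macrophages use to take up dying cells. The highest r of Itgb1, Itgb8, Itga6, Itgav and Itga8 belonged to Tgoln1, Dapk2, Mif, Vezf1 and Ssr1 (0.961, 0.976, 0.989, 0.984 and 0.966). Itga8 reached a mean of only 8.66 CPM in these classes, and its highest cluster was not among them, so its r ranks low counts. Outside FBs, Itga11 averaged 1.15 CPM or less in these classes, so its r rests mainly on FBs against the rest.

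Lists of hemidesmosome, ligand, TGF-β and other integrin genes were read in the same classes. Col17a1, the transmembrane collagen of the hemidesmosome, averaged 1528 ± 318 CPM (n = 6) in KC-like cells, its highest class. Lama3 was highest there too, at 109 ± 27.9 CPM (n = 6). Among the other subunits Itgae, the αE chain that binds E-cadherin, was highest in TCs (262 ± 61.5 CPM, n = 8) and Itgax, the αX chain of myeloid cells, in Langerhans-like cells (180 ± 49.8 CPM, n = 5). Nrros, which tethers latent TGF-β on macrophages, was highest in macrophage-like cells (207 ± 89.6 CPM, n = 6). Npnt, the nephronectin gene that encodes a ligand of α8β1 and was chosen after its values were seen, was highest in ORS and bulge HF-like cells (102 ± 67.7 CPM, n = 7), which themselves held Itga8 at 3.72 ± 6.47 CPM.

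The treatment comparison asked whether PBMCsec changed these genes within a cell class. The UMIs of all cells of a class were added up in each library, and edgeR's quasi-likelihood test was run on these sums over all genes, with 4 libraries a group. A member was tested where it passed the low-count filter: 4 of 10 in FBs, 8 in epithelium, 7 in upper HF-like cells, 3 in TCs and 2 in the myeloid class. No member was called in any class at an adjusted p under 0.05, against a background of 0% of genes called in each class (0 of 9166 in FBs, 10579 in epithelium, 5991 in upper HF-like cells, 4754 in TCs and 5591 in the myeloid class). At an unadjusted p under 0.05 the members gave 0 of 4 in FBs (background 2.55%), 0 of 8 in epithelium (1.64%), 0 of 7 in upper HF-like cells (1.92%), 1 of 3 in TCs (3.77%) and 0 of 2 in the myeloid class (4.67%). No tested member had groups that did not overlap, beside 1.93%, 1.41%, 1.77%, 2.40% and 2.70% of all genes in these classes. On simulated counts of the same libraries the test recovered 96.7 to 100% of genes changed 4-fold in these 5 classes. It recovered 24.3 to 45.5% of genes changed 2-fold, and in all kept cells together 76.5% and 13.3%, so changes of the smaller size could be missed. Each simulation changed many genes at once (in FBs 110 genes 2-fold and 90 genes 4-fold), which eases the adjusted threshold. The recovery of a single changed member, also at 4-fold, may be lower and was not tested. CPM in the following paragraphs are scaled by TMM and differ slightly from those above.

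**Figure D3:**
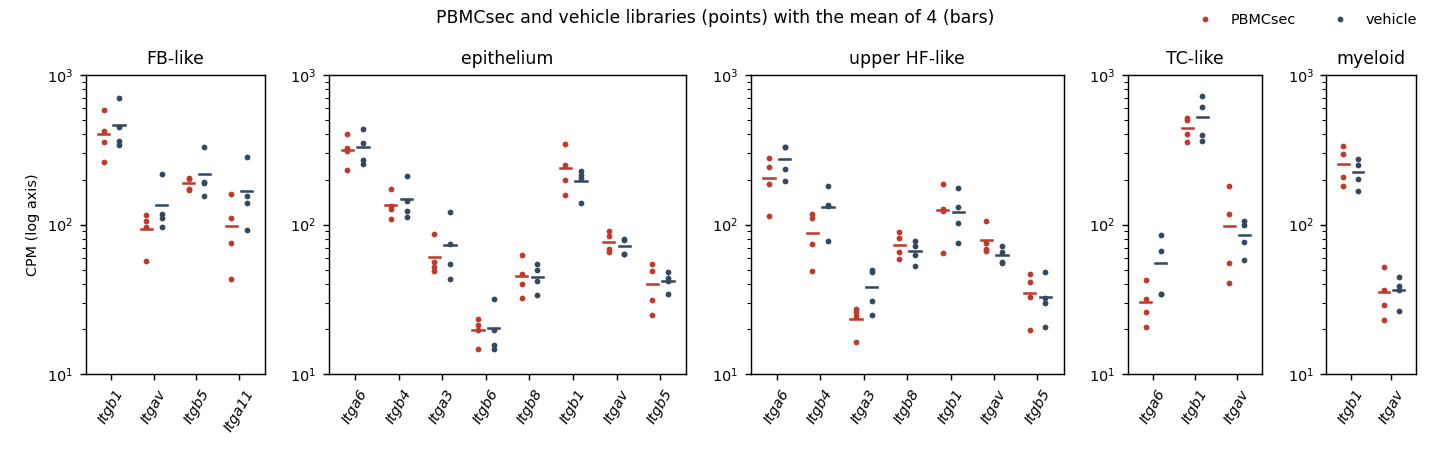
TMM-scaled CPM (log axis, 10 to 1000) of each member that passed the low-count filter, by cell class. Points are the 4 PBMCsec (red) and 4 vehicle (dark) libraries and bars their mean. The groups overlap for each gene; TC Itga6 lies at 20.7 to 42.7 CPM after PBMCsec and 34.2 to 85.2 CPM after vehicle.

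In FBs all 4 tested members had negative fold changes, none of which passed the test. Itga11 was 160, 43.4, 110 and 75.6 CPM in PBMCsec libraries 1 to 4 and 157, 282, 92.6 and 140 CPM in vehicle libraries 1 to 4, means of 97.4 ± 50.04 and 168 ± 80.7 CPM. The groups overlapped, the lowest value being PBMCsec 2 (68 FBs) and the highest vehicle 2 (20 FBs). Its log2 fold change was -0.67 ± 0.39 (SE; edgeR adjusted p = 1.0). Itgav averaged 93.8 ± 26.0 and 136 ± 55.7 CPM, a log2 fold change of -0.48 ± 0.29 (edgeR adjusted p = 1.0), with vehicle 1 at 218 CPM and the other 7 libraries at 56.8 to 118 CPM. Itgb1 (404 ± 135 and 461 ± 164 CPM) and Itgb5 (188 ± 18.3 and 217 ± 75.7 CPM) had log2 fold changes of -0.18 ± 0.30 and -0.17 ± 0.24 (edgeR). The summed level of epithelial markers in FBs was 113 to 315 CPM after PBMCsec and 81.1 to 324 CPM after vehicle, against 25772 CPM or more in epithelium. Of 17 listed stress genes that cell dissociation can raise, 4 in FBs (Hspa1a, Hspa1b, Hsp90aa1 and Dnajb1) were higher after PBMCsec at an unadjusted edgeR p under 0.05 and 0 lower, and none was called. FB clusters also differed in mean share, with groups that overlapped. The cluster led by Mrgprg and Smpd3 averaged 22.1% of FBs after PBMCsec (10.3 to 31.8%) and 33.5% after vehicle (25.2 to 46.4%, highest in vehicle 1). The cluster led by Ptx3 and Ccl2 averaged 6.35% (0 to 10.9%) and 2.11% (0 to 5.16%), and 1 library held 55.3% of its cells. Pooled Itga11 in the 6 FB clusters ran from 21.1 to 144 CPM, with 144 CPM in the first and 124 CPM in the second of those clusters. The part of these in the values was not tested.

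The shares of FBs with a UMI overlapped as well. A UMI of Itga11 was found in 23.5 to 62.1% of FBs after PBMCsec (median 49.0%) and in 40% to 67.9% after vehicle (median 52.8%), a difference of -7.49 percentage points (exact permutation test, p = 0.543). Thinned to 1000 UMIs a cell, the mean share was 7.05 ± 2.97% after PBMCsec and 13.2 ± 5.40% after vehicle (exact permutation p = 0.114). Of 24 such tests over the members and classes, 0 had an adjusted p under 0.05, with or without thinning. The smallest p of this test is 0.0286, so a single test at that floor could not pass adjustment over 24 tests. The count of 0 therefore does not exclude a change in a single member.

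In the epithelium the 8 tested members stayed close to 0, with log2 fold changes between -0.21 and 0.29. Itga6 was 403, 310, 324 and 232 CPM in PBMCsec libraries 1 to 4 and 352, 438, 254 and 271 CPM in vehicle libraries 1 to 4, a log2 fold change of -0.04 ± 0.23 (edgeR). Itgb4 averaged 136 ± 26.6 and 148 ± 44.8 CPM (-0.11 ± 0.24), Itga3 61.0 ± 17.7 and 73.4 ± 34.1 CPM (-0.21 ± 0.33), Itgb6 19.8 ± 3.70 and 20.6 ± 7.90 CPM (0.04 ± 0.30) and Itgb8 45.4 ± 12.7 and 45.0 ± 9.12 CPM (0.05 ± 0.25). Itgb1 had the largest of these fold changes, 239 ± 81.7 and 196 ± 39.1 CPM (0.29 ± 0.26, edgeR), and rested on PBMCsec library 1 at 348 CPM. Itgav (0.12 ± 0.19) and Itgb5 (-0.13 ± 0.26) lay in the same range. The make-up of the epithelium differed between libraries: ORS and bulge HF-like cells were 25.1% of it after PBMCsec and 17.2% after vehicle on average, and vehicle library 1 (20 epithelial cells) had none of them and 50% upper HF-like cells. The part of this in the values was not tested.

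Upper HF-like cells were also fitted alone. Itga3 was 26.1, 16.3, 24.4 and 27.4 CPM in PBMCsec libraries 1 to 4 and 31.0, 48.0, 49.5 and 25.1 CPM in vehicle libraries 1 to 4, a log2 fold change of -0.67 ± 0.32 (edgeR adjusted p = 1.0). Vehicle 4 lay within the PBMCsec libraries and the others above them, and PBMCsec 2 and vehicle 1 had 10 cells each. The 6 others had log2 fold changes from -0.45 to 0.33.

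KC-like cells were fitted alone over the 6 libraries with at least 10 of them, 3 a group, a comparison added after their values were seen. Of 7 members tested 0 were called (0% of 7091 genes), 0 had an unadjusted p under 0.05 (background 1.34%) and 1, Itga6, had groups that did not overlap (background 5.66%). The log2 fold change of Itga6 was -0.28 ± 0.20 (edgeR adjusted p = 1.0), and those of the 6 others lay between -0.25 and 0.25.

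In TCs Itga6 gave the lowest p of the members. It was 42.7, 31.9, 20.7 and 26.0 CPM in PBMCsec libraries 1 to 4 and 85.2, 67.0, 34.2 and 34.3 CPM in vehicle libraries 1 to 4, means of 30.3 ± 9.43 and 55.2 ± 25.3 CPM. PBMCsec library 1 lay above vehicle libraries 3 and 4, so the groups overlapped, while within each library number PBMCsec was the lower. The log2 fold change was -0.83 ± 0.36 (edgeR adjusted p = 1.0, and an unadjusted one under 0.05), and -0.86 ± 0.28 with the library number as a block (edgeR adjusted p = 0.451). With that block edgeR called 3 genes in TCs, none of them a member. The exact permutation test over the 8 libraries gave p = 0.114 (adjusted p = 0.971 over 34 tests), where the smallest possible p is 0.0286. A UMI of Itga6 was found in 10.6 ± 6.11% of TCs after PBMCsec and 15.0 ± 7.63% after vehicle (exact permutation p = 0.40), and in 3.64 ± 2.09% and 4.20 ± 0.75% of thinned cells. Epithelial markers summed to 382 to 914 CPM in TCs after PBMCsec and to 295 to 996 CPM after vehicle, ranges that overlap, and their part in the Itga6 level was not tested. Itgb1 (-0.24 ± 0.24) and Itgav (0.25 ± 0.38) of TCs were within their errors (edgeR).

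The effect of PBMCsec was also compared between classes. Of 14 comparisons over Itgb1, Itgb5, Itgav and Itga6, 0 passed after adjustment. A single comparison at the smallest possible p, 0.0286, could not pass adjustment over 14. Itga6 differed most, with an effect in epithelium that was 0.66 log2 units above that in TCs (exact permutation p = 0.0286, adjusted p = 0.40). For Itgb1 the effect in FBs was 0.43 log2 units below that in epithelium (exact p = 0.171, adjusted p = 0.48), and for Itgav 0.60 below (exact p = 0.143, adjusted p = 0.48).

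In the myeloid class Itgb1 was 255 ± 72.3 CPM after PBMCsec and 224 ± 48.4 CPM after vehicle (log2 fold change 0.19 ± 0.25), and Itgav 35.3 ± 12.7 and 36.7 ± 7.52 CPM (-0.15 ± 0.33, edgeR). Itgb5, which within the myeloid class was found mainly in macrophage-like cells, did not pass the filter in the joint class.

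**Figure D4:**
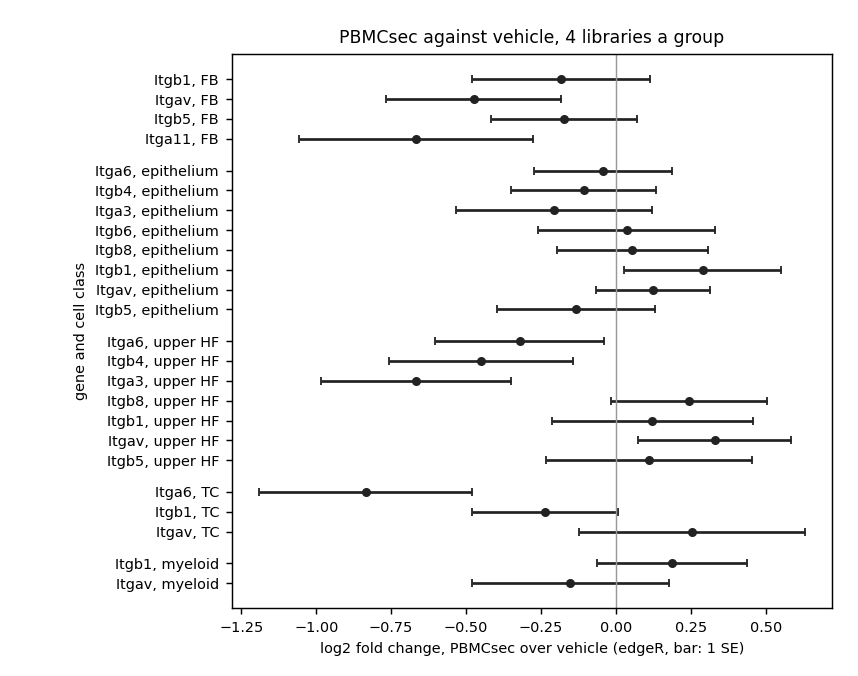
Log2 fold change of each tested member, PBMCsec over vehicle, from edgeR in each class (4 libraries a group, bars 1 SE). TC Itga6 lies farthest from 0 at -0.83, followed by FB Itga11 and upper HF Itga3 at -0.67, and no point passed the adjusted test.

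Summed over all kept cells, whatever their class, all 10 members passed the filter and none was called (0% of 13182 genes called; 0 of 10 members at an unadjusted p under 0.05, background 2.54%; 0 of 10 with groups that did not overlap, background 1.79%). Itgb1 was 452, 333, 316 and 233 CPM in PBMCsec libraries 1 to 4 and 423, 340, 300 and 223 CPM in vehicle libraries 1 to 4. In Itgb1 each library lay closest to the library of the same number in the other group. Its log2 fold change was 0.06 ± 0.26 without and 0.05 ± 0.11 with the library number as a block (edgeR). This did not hold for all members: PBMCsec 2 and vehicle 2 held Itgb4 at 29.9 and 119 CPM and Itga6 at 95.5 and 260 CPM. With the block the SE rose for Itgb4, Itgb8, Itga3 and Itga6 and fell for the other members.

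**Figure D5:**
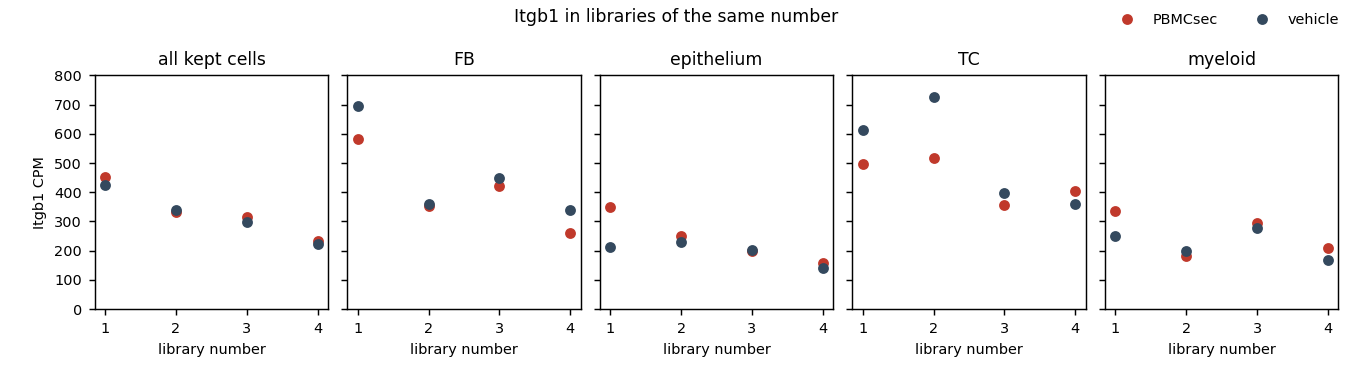
TMM-scaled CPM of Itgb1 (axis from 0) against the library number the labels give, for all kept cells and 4 classes; each number holds 1 PBMCsec (red) and 1 vehicle (dark) library. In all kept cells the points of a number nearly coincide, 452 and 423 CPM for number 1 and 233 and 223 CPM for number 4.

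Among the lists of related genes, 0 genes were called in any class. In FBs, 16 of the 22 tested adaptors that link integrins to actin had negative fold changes (median -0.14, beside 0.00479 over all genes tested). So had 11 of 20 tested ligands (median -0.18), and 6 of 7 membrane partners had positive ones (median 0.37). In the epithelium 17 of 22 tested adaptors had positive fold changes (median 0.14), as had 12 of 16 tested ligands (median 0.23). There 6 of 7 membrane partners were positive too (median 0.18). Fn1, the gene of fibronectin, was 5895, 1786, 6348 and 5737 CPM in FBs of PBMCsec libraries 1 to 4 and 11648, 11125, 6451 and 6168 CPM in vehicle libraries 1 to 4, a log2 fold change of -0.84 ± 0.36 (edgeR adjusted p = 1.0). PBMCsec 3 lay above vehicle 4, so the groups overlapped by these libraries alone. Postn, the gene of periostin, another integrin ligand, had -0.47 ± 0.23 and Fbn1, the gene of fibrillin-1, -0.69 ± 0.38 (edgeR adjusted p = 1.0 for both). In the epithelium, 4 of the 7 hemidesmosome partners had positive and 3 negative fold changes (median 0.08, from -0.22 to 0.29). The 3 negative ones were Col17a1 at -0.22 ± 0.27, Dst at -0.19 ± 0.36 and Plec at -0.10 ± 0.26. In upper HF-like cells alone, all 7 had negative fold changes (median -0.14, lowest -0.47). Mfge8, a ligand of αvβ5, was 127, 903, 51.1 and 123 CPM in the epithelium of PBMCsec libraries 1 to 4 and 14.9, 65.0, 124 and 89.6 CPM in vehicle libraries 1 to 4. The log2 fold change of Mfge8 was 1.86 ± 0.79 (edgeR adjusted p = 1.0) and rested on PBMCsec library 2; in the epithelium the SMC/PC markers summed to 28.5 to 2906 CPM over the PBMCsec libraries and 49.3 to 179 CPM over the vehicle libraries, and their part in Mfge8 was not tested. In the myeloid class Nrros was 212, 216, 139 and 138 CPM in PBMCsec libraries 1 to 4 and 141, 146, 73.7 and 97.5 CPM in vehicle libraries 1 to 4, a log2 fold change of 0.68 ± 0.28 (edgeR adjusted p = 1.0). Within each library number Nrros was the higher after PBMCsec, although the groups overlapped.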

How the data were processed

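Single cells of mouse dorsal skin from 8 libraries (4 PBMCsec, 4 vehicle) were analysed from the UMI counts per gene and barcode that the authors deposited, raw and unnormalized. The submitters' processing notes name Cell Ranger 3.0.2 and mm10; the study's methods name a later Cell Ranger version. The files' values were checked to be whole numbers. Following the study's limits, a cell was kept if it had 500 to 4000 genes, no more than 20000 UMIs and a mitochondrial share of 5% or less, and Gm42418, Gm17056 and Gm26917 were dropped.

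Seurat 5.3.0 in R 4.3.3 integrated the libraries and clustered the cells on 2000 variable features (30 dimensions, resolution 1), without the members and listed genes among the features. A marker was met if it appeared in 25% or more of a cluster's cells and at 2-fold or more of the level elsewhere (prior of 10 CPM). A cluster took the class that led its top 10 genes with 2 or more markers or, failing that, the class with most markers met, and in both cases 3 or more had to be met, a rule written once the clusters were known. In 8 of the 27 named clusters, 5 of them FBs, no marker was among the top 10 genes. As in the study, fibrillar collagen genes outside FBs and keratin genes outside epithelium were left out of the tests by class. Doublets were sought with Scrublet in scanpy 1.11.5, which marked 18 cells (0.293%). So low a share was not relied on, so no cell was removed, and leaving out the 5% of cells with the highest score was an alternative.

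Sums of counts for each class and library (at least 10 cells in each library) were fitted in edgeR 4.0.16 with TMM and filterByExpr, and its quasi-likelihood test was adjusted by Benjamini-Hochberg over all genes at 0.05. The study's own test over single cells was not run, since cells of a library are not replicates. Single values were compared by exact two-sided permutation tests over libraries, over the 70 labellings of the 8 libraries or by sign flips within libraries, on log2 CPM with a prior count of 2. Alternatives were DESeq2 1.42.0 and its size factors, no low-count filter, a block for library number, libraries 1 and 2 or 3 and 4 alone, each library left out, a mitochondrial limit of 10%, a prior count of 0.5 and cells thinned to 1000 UMIs. After the data were seen, leaving out the FB cluster held mostly by 1 library, summing all deposited barcodes, comparing broad classes in pairs and fitting KC-like cells over 6 libraries were added.

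Deviations of libraries with equal numbers from their group means had positive correlations in TCs (r of 0.34, 0.18, 0.13 and 0.40 for numbers 1 to 4) and in all kept cells (0.29, 0.30, 0.47 and 0.57). In FBs, epithelium, upper HF-like cells and the myeloid class at least 1 r was under 0.1. In TCs and the myeloid class each PBMCsec library correlated most with the vehicle library of its number. In all kept cells number 2 did not. The labels do not say that equal numbers form a pair, so the main tests were unpaired and the block was an alternative. Named genes were all members, up to 3 genes of each list with the highest level in the class, and the 3 genes most like each member. The edgeR step was tested on simulated data. Members and lists were chosen with earlier results of these data known. Intervals on pooled counts cover counting error only.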

Additional observations from a re-analysis of the deposited data

Results flagged for a closer look

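The effect of PBMCsec on Itga6 differed between cell classes before adjustment. In epithelium the effect was 0.66 log2 units above that in TCs (-0.04 against -0.71 on the scale of mean log2 CPM; exact two-sided permutation of the labels over libraries, p = 0.0286, the smallest that 70 labellings allow). The adjusted p over 14 such comparisons was 0.40. Leaving out 1 library at a time kept the difference between 0.48 and 0.75 log2 units. Among 68 groups of 4 libraries, no member had a library set apart from the other 3 by Dixon's test.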

How the results depend on the processing

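The finding that no member was called held under each alternative run, in FBs, epithelium, upper HF-like cells, TCs, the myeloid class, all kept cells and KC-like cells (the latter under fewer alternatives). Counts of all genes called, 0 in each class, rose under some settings. DESeq2 called 2 genes in upper HF-like cells, 3 in TCs, 7 in the myeloid class, 8 in all kept cells and 1 in KC-like cells. Without the low-count filter edgeR called 64 in upper HF-like cells, 45 in TCs, 109 in the myeloid class and 17 in KC-like cells. With the library number as a block it called 3 in TCs and 6 in the myeloid class; the block changed no other count and no call of a member. Libraries numbered 1 and 2 alone gave 2 in FBs, 9 in upper HF-like cells, 10 in TCs and 8 in the myeloid class, and libraries numbered 3 and 4 alone gave 1 in FBs, 1 in upper HF-like cells and 1 in the myeloid class. Without the highest doublet scores 2 were called in the myeloid class. Leaving out 1 library gave 0 to 2 in TCs (2 without PBMCsec 4) and 0 to 1 in the myeloid class (1 without vehicle 2).

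Small fold changes turned sign. Libraries 1 and 2 alone put epithelial Itgb6 at -0.72. Libraries 3 and 4 alone put epithelial Itga6 at 0.081, Itga3 at 0.14, Itgb4 at 0.15, Itgb8 at -0.058 and Itgb5 at 0.0053, and TC Itgb1 at 0.016. A mitochondrial limit of 10% put epithelial Itgb6 at -0.045 and Itgb8 at -0.11. The block put epithelial Itgb8 at -0.030, and leaving out the highest doublet scores put epithelial Itgb6 at -0.0081 and myeloid Itgav at 0.0031. Thinning turned the FB share of Itgb1 to 1.25 points and that of Itgb5 to -1.07 points. Leaving out 1 library at a time spanned 0 for more of them: in FBs Itgb1 (-0.41 to 0.084) and Itgb5 (-0.28 to 0.053), in epithelium Itgb6 (-0.16 to 0.34), Itga6 (-0.19 to 0.13), Itga3 (-0.43 to 0.20), Itgb4 (-0.24 to 0.13), Itgb8 (-0.16 to 0.20) and Itgb5 (-0.39 to 0.043), Itgav in TCs (-0.19 to 0.47) and in the myeloid class (-0.32 to 0.026), Itgb1 in all kept cells (-0.11 to 0.23), the FB share of Itgb1 (-3.00 to 0.51 points) and the difference of the Itgb5 effect between FBs and epithelium (-0.18 to 0.13). FB Itgb1 turned without vehicle 1, FB Itgb5 without vehicle 2 and TC Itgav without PBMCsec 1.

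The log2 ratio of Itgb1 in TCs to FBs went from 0.06 to -0.087 with a mitochondrial limit of 10% (-0.084 to 0.14 with 1 library left out, negative without vehicle 2), and that limit moved the ratios of KC-like to ORS and bulge HF-like cells to 0.023 for Itgb4 and 0.78 for Itga3. The cause was not tested. Upper HF-like and myeloid cells numbered as few as 10 and 15 in a library.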

Other observations

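Of 17 other integrin subunit genes, several stood highest in clusters too small for a test, as pooled levels chosen after their values were seen. Itga1, a collagen receptor chain, reached 632 CPM (95% exact Poisson interval 527 to 753) in SMC/PC-like cells, and Itga7, a laminin receptor chain of muscle, reached 110 CPM (69.2 to 167) there. Itga9 reached 327 CPM (269 to 394) in LEC-like cells, whose valves are known to need α9, and Itga5, the fibronectin receptor chain, 125 CPM (82.5 to 182) in EC-like cells. In 27 mast cell or basophil-like cells Itgam stood at 351 CPM (231 to 511), Itgb7 at 338 CPM (221 to 495), Itga2b at 130 CPM (62.4 to 239) and Itgb3 at 104 CPM (44.9 to 205). Without PBMCsec library 1, Itgam stood at 181 CPM and Itgb3 at 54.4 CPM there. Of the 10 members, those cells held 45 UMIs of Itgb1, 4 of Itga6 and 1 of Itga8, and 0 of the other 7. Neutrophil-like cells held Itgal at 251 CPM (187 to 330) and Itgb2 at 216 CPM (157 to 290), the 2 chains of LFA-1, from 51 and 44 UMIs in 118 cells.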
